A study of Mus musculus with 4 samples.

Results

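Western diet for 2 weeks was compared with chow in the aorta of Ath29 congenic mice, 1 array on each diet, which are 2 of the 4 arrays of the study. Ath29 mice are congenic on the C57BL/6 strain, so they carry a donor segment at the Ath29 atherosclerosis locus of chromosome 9, and the labels describe them as resisting the disease. The other 2 arrays come from C57BL/6 apoE-/- mice, called B6 here, which cannot make apolipoprotein E, a protein that clears cholesterol-rich particles, and which the labels describe as diseased, again with 1 array on chow and 1 on Western diet. The labels give the apoE-/- genotype for B6 mice only, so whether the Ath29 mice carried it too was not settled here. Weaning was at 3 weeks of age, and the Western diet, rich in fat and cholesterol, began at 4 weeks and lasted 2 weeks. How many mice gave RNA to an array is not given in the sources used here. The question is which aortic transcripts differ between the diets in the resistant strain.

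Cholesterol-rich diets raise the lipoproteins that enter the artery wall and are taken up there by macrophages, which respond through lipid-sensing receptors and inflammatory genes. The aorta itself is built of smooth muscle, endothelium, fibroblasts and matrix, and in the mouse it lies in brown and white fat that can come with the dissected vessel. In such bulk RNA, fewer cells of a type and less RNA per cell cannot be told apart.

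With the 4 arrays brought to the same median, 11718 genes had a mean signal over the 4 arrays above an intensity of 27.4, the filter level. On Western diet, 156 of them (1.33%) read at least 2-fold higher in Ath29 mice than on chow, and 100 (0.853%) at least 2-fold lower. The median log2 difference over all genes, Western minus chow, was 0.04, with 56.2% of genes above 0 and 43.8% below. With 1 array per diet there is no replicate, so no difference given here has a test, and a gene is counted by its fold alone. A sense of the probe set error alone comes from genes read by several probe sets. Over 7434 pairs of probe sets of 4663 genes the log2 differences lay apart by a median of 0.25, and by 0.73 at the 90th percentile. Both probe sets of a pair were read on the same 2 arrays. Their gap therefore holds no variation between mice, dissections or arrays, which could not be measured here. Low signals scattered most. Of the 256 genes at least 2-fold different, 160 were among the 2930 genes with the weakest signal and 8 among the 2930 with the strongest.

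Where both Ath29 arrays exceeded the filter level, 97 of 11185 genes (0.867%) were at least 2-fold higher on Western diet and 51 (0.456%) lower. Among all 156 higher genes, 26 had a further probe set above the filter. For 18 of these the other probe sets gave the same sign on average, 16 of them at 1.5-fold or more. Of all 100 lower genes, 11 had a further probe set, with the same sign for 5 and at least 1.5-fold for 4. Differences that rest on a value below 27.4 are therefore not exact, and those against the floor of 9.59 are bounds.

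**Figure D1:**
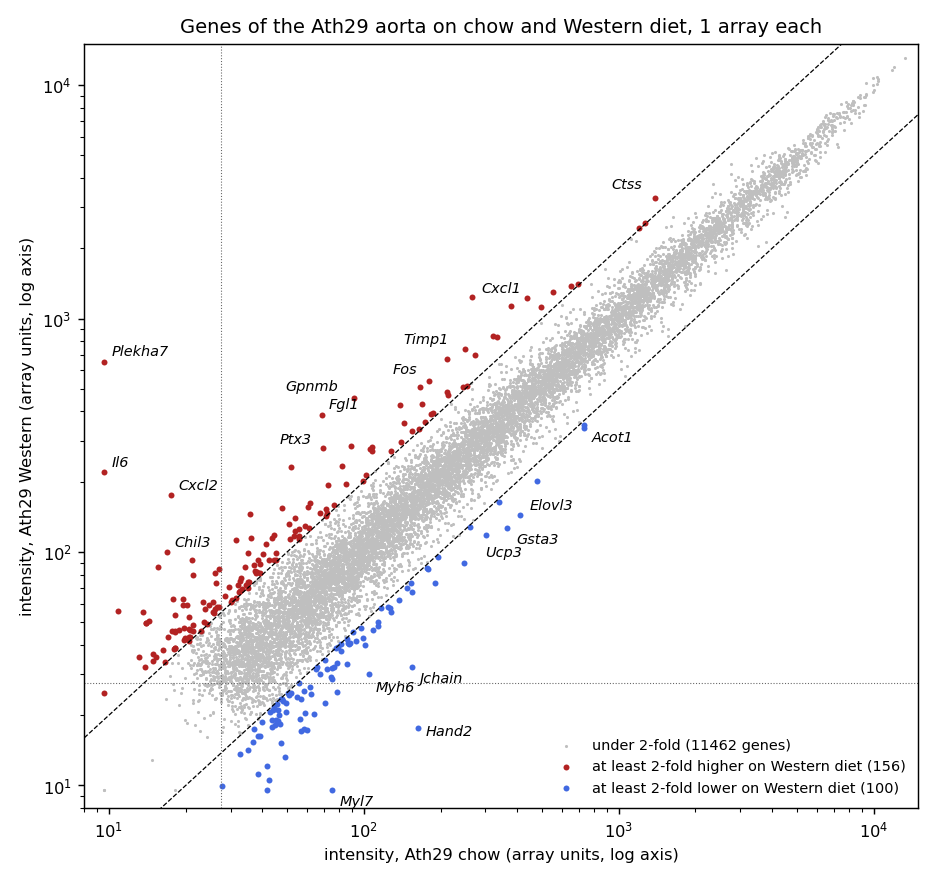
Each point is a gene, with its intensity on the Ath29 chow array on the horizontal axis and on the Ath29 Western array on the vertical axis, both in array units on log axes. Red points are the 156 genes at least 2-fold higher on Western diet, blue points the 100 at least 2-fold lower, dashed lines mark 2-fold and dotted lines the filter level of 27.4. Most coloured points lie at low intensity, while Cxcl1, Ctss and Timp1 stand out among brighter genes.

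The B6 arrays give the same diet difference in the susceptible strain, and the diet differences of the 2 strains share no array. In B6 mice 482 genes (4.11%) were at least 2-fold higher on Western diet and 137 (1.17%) lower, with 43.4% of all genes above 0, 56.6% below and a median of -0.06. Of the 156 genes higher in Ath29 mice, 29 were also at least 2-fold higher in B6 mice, 18.6% of the Ath29 list and 6.02% of the B6 list, and 6 were at least 2-fold lower there. Of the 100 lower genes, 1 was at least 2-fold lower in B6 mice and 29 were at least 2-fold higher. The difference between the strains was not tested. Beside the B6 arrays, the Ath29 chow array lay below both for 126 of the 156 higher genes (80.8%, against 39.2% of all genes). The Ath29 Western array lay above both for 101 (64.7%, against 27.1% of all genes). Of the 100 lower genes, 64 read above both B6 arrays on chow (24.1% of all genes did) and 72 below both on Western diet (31.2% of all genes). The genes were chosen by these same Ath29 values, which favours such positions, so the counts are a description only.

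The tissue and the RNA bear on what follows. The source label names aorta, while an extraction protocol in the labels names liver. Acta2, the smooth muscle actin, read 10390 on chow and 10670 on Western diet in Ath29 mice, and albumin (Alb), the main hepatocyte product, 64.0 and 56.0. For actin, the ratio of the 3' probe set to the middle one was 10.2 on Ath29 chow and 7.62 on Ath29 Western, against 5.10 and 5.63 in B6 mice. For Gapdh the same ratio was 8.87 and 10.6, against 9.23 and 9.54, so the 2 control transcripts went opposite ways between the Ath29 arrays. The part of RNA quality in the differences was not tested. The Apoe probe set read 8.43 and 25.1 in Ath29 mice and 7.18 and 19.0 in B6 mice, all below the filter level, and whether it lies inside the deleted stretch is not known here.

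Il6, Cxcl2 and Cxcl1 were among the genes with the largest differences toward Western diet. Il6, the cytokine that drives the acute phase response, read 8.49 on chow and 220 on Western diet in Ath29 mice, at least 23.0-fold higher since the chow array lay at the floor. In B6 mice it read 1.27 and 30.9. Cxcl2, a neutrophil-attracting chemokine, went from 17.6 to 175 between the Ath29 arrays (log2 difference 3.32) and from 11.6 to 66.9 between the B6 arrays. Its close relative Cxcl1 read 266 and 1240 in Ath29 mice (2.22), with its 2 other probe sets between 3.44 and 4.74, and 237 and 896 in B6 mice. These 3 genes were higher on Western diet in both strains.

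Il6, Cxcl1 and Cxcl2 are textbook targets of the transcription factor NF-kB, so the 250 bases before their start sites are shown, with Steap4, a cytokine-induced metalloreductase that read 379 and 1136 in Ath29 mice (1.59). The sequences are RefSeq promoters of build GRCm38.p6, all on the plus strand: Il6 at chr5:30012864-30013113, Cxcl2 at chr5:90903649-90903898, Cxcl1 at chr5:90890995-90891244 and Steap4 at chr5:7960222-7960471. Capitals mark an NF-kB form, GGG, any 2 bases, then TTTCC, searched on both strands.
Il6: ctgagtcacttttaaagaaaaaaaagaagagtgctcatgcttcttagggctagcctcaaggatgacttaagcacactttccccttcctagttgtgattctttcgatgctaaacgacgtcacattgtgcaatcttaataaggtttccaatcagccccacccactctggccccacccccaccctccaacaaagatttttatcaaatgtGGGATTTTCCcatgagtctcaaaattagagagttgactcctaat
Cxcl2: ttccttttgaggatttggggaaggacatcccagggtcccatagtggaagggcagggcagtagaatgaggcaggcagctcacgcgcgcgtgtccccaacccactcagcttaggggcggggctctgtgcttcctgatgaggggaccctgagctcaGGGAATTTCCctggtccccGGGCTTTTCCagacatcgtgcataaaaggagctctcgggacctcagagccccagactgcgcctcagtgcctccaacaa
Cxcl1: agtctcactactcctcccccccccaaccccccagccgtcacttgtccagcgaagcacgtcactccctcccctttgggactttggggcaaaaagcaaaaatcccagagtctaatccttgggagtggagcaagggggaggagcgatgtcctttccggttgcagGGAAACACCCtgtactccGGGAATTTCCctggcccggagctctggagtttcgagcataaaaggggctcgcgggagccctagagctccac
Steap4: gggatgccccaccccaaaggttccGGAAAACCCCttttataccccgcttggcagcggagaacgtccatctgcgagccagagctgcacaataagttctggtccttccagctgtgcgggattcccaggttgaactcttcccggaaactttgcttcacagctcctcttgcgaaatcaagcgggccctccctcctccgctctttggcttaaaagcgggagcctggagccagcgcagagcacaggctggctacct
The form begins 44 bases before the start in Il6, 97 and 78 bases before it in Cxcl2, 89 bases (minus strand) and 71 bases before it in Cxcl1, and 226 bases before it in Steap4, on the minus strand. It was found in 464 of 32851 promoters of this length (1.41%), in 161 of the 9447 genes compared that had a promoter (1.70%), in 10 of 120 such genes at least 2-fold higher on Western diet (8.33%) and in 2 of 77 lower (2.60%). The motif was chosen with these results known, and a match is a description of the letters, not of binding. The other matches among the higher genes were in Ccl9, Serpina3n, Il1rn, Cd300lb, Zfp937 and Gucy2g.

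The chemokine list as a whole had no settled direction. Of 30 listed CXC and CC chemokines, 16 passed the filter, 7 of them above 0 and 9 below, with a median of -0.01, which was 0.66 over the 8 members that passed a filter at the 75th percentile. At least 2-fold higher were 4 of the 16, against 1.33% of all genes. The other 2 of these were Ccl8, a monocyte attractant (139 and 426, log2 difference 1.61), and Ccl9 (495 and 1120, 1.18). Ccl6, of the same cluster, read 1173 and 2142 (0.87), and Cxcl12, which wall cells make constitutively, 3304 and 4532 (0.46). Ccl25 read 70.7 and 42.9 (-0.72), and Ccl2, the best known monocyte chemokine, read 1.02 and 0.997, below any usable signal. Of 9 chemokine receptors measured, Ccr2, the receptor of Ccl2 on monocytes, read 183 and 392 (1.10), though its 2 other probe sets gave 0.07 to 0.37.

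Downstream of the cytokines, Socs3, the feedback inhibitor that interleukin 6 induces, read 322 and 845 (log2 difference 1.39, other probe set 1.33), against 418 and 652 in B6 mice. Osmr, the oncostatin M receptor, read 704 and 1100 (0.64). Over the 15 measured genes of the interleukin 6 family and its signalling, 9 were above 0 and 6 below (median 0.06), so Il6 and Socs3 were not accompanied by the rest. Of 12 interleukin 1 family and inflammasome genes, 10 were above 0 (median 0.36). Il1rn, the interleukin 1 receptor antagonist, read 13.7 and 55.3, and Il1r1, the signalling receptor, 17.7 and 45.9, each with the chow value below the filter level. Il33, an alarmin of wall cells, read 421 and 694 in Ath29 mice and 435 and 712 in B6 mice, 0.72 and 0.71 on the log2 scale. In the TNF and NF-kB list 9 of 12 genes were above 0 (median 0.32, falling to 0.05 over 19 genes with no filter on low values) and 0 passed 2-fold. The largest were Tnfaip2 (0.96, other probe set 0.11), Nfkbiz (0.92, other probe sets -0.40 and 0.28) and Tnfaip3 (0.77). Nfkbia, the main NF-kB inhibitor, read 8284 and 8230.

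Acute phase and complement genes, the innate defence proteins of plasma that vessel walls and fat also make, were mostly higher. Of 21 listed acute phase genes, 12 passed the filter and 8 lay below it, among them Saa1, Saa2 and Lcn2. Of the 12, 10 were above 0, against 56.2% of all genes, with a median of 0.51. At least 2-fold higher were 5 of the 12, against 1.33% of all genes. Fgl1, a fibrinogen-like protein, read 68.2 and 388 (log2 difference 2.51), and Ptx3, a pentraxin made by vascular and myeloid cells, 69.1 and 279 (2.01). Saa3, the extrahepatic serum amyloid A, went from 335 to 837 (1.32), and Hp, haptoglobin, from 1270 to 2571 (1.02). Serpina3n, a protease inhibitor, read 27.0 and 84.7 (1.65). The B6 differences of Fgl1, Ptx3, Saa3 and Hp were 4.79, 4.62, 3.01 and 2.14, each larger than in Ath29 mice, and on chow these 4 genes read 13.5, 33.9, 76.0 and 569 in B6 mice, each lower than on the Ath29 chow array. Serpina3n, the fifth at 2-fold, gave 1.38 in B6 mice, below its Ath29 value, and Itih4, an inter-alpha-trypsin inhibitor chain, gave 0.43 in Ath29 mice and -0.15 in B6 mice. Leaving out probe sets open to several transcripts gave an acute phase median of 0.24.

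All 11 complement genes measured were above 0 in Ath29 mice, with a median of 0.65. C1s1, a protease of the classical pathway, read 43.8 and 115 (1.39), and C2, its substrate, 264 and 528, with 2 other probe sets at 0.16 and 1.18. The subunits of C1q, which macrophages secrete, gave 0.75 for C1qa, 0.53 for C1qb and 0.78 for C1qc. In B6 mice C1s1 gave 0.50 and C2 -0.05, while C1qb gave 1.17. Interferon-stimulated genes had 14 of 25 members above 0 and a median of 0.05. Rsad2, the antiviral viperin, read 1469 and 966 in Ath29 mice (-0.60, other probe set -0.66) and 842 and 1570 in B6 mice.

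Macrophage markers that passed the filter were higher on Western diet almost throughout. Of 32 listed, 5 lay below the filter: Cd14, Fcgr1, Fcer1g, Trem2 and Aif1. Of 25 measured, 24 were above 0 against 56.2% of all genes, their median was 0.49, and their summed intensity was 16710 on chow and 23520 on Western diet, against 14410 and 25670 in B6 mice. Gpnmb, a membrane glycoprotein of foam cells, read 91.1 and 456 (log2 difference 2.32), the largest of the list, and 121 and 283 in B6 mice (1.23). Mpeg1, which forms pores in engulfed microbes, went from 108 to 270 (1.33), Ctss, a lysosomal protease that prepares antigen, from 1390 to 3292 (1.24), and Lgals3, a lectin of lipid-laden cells, from 695 to 1402 (1.01). The lineage markers Cd68, Mrc1 and Csf1r gave 0.84, 0.67 and 0.30, and Adgre1 (F4/80) read 86.1 and 86.2. Cd36, a fatty acid translocase that fat cells also make, was the member below 0 (-0.52, other probe sets -0.68 and -0.63). Outside the list, Chil3, a chitinase-like protein of alternatively activated macrophages, read 16.9 and 99.7.

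Myeloid lectins and receptors, which sense microbes and dying cells, had 16 of 18 members above 0 and a median of 0.50. Clec7a (Dectin-1) read 212 and 487 (log2 difference 1.20), Clec4d 53.1 and 117 (1.14) and Clec4n 67.6 and 147 (1.12), and Cd300lb 13.9 and 49.4. Antigen presentation by MHC class II had 8 of 10 members above 0 (median 0.43, and 0.84 over the 3 that passed a filter at the 75th percentile), with H2-Ab1 at 781 and 1402 (0.84) and H2-Aa at 1600 and 2502 (0.64). The class II regulator Ciita read 48.0 and 28.8 (-0.73), and H2-Ea, outside the list, 88.7 and 40.9 (-1.12). Lysosomal genes had 18 of 26 members above 0 and a median of 0.10, so the lysosomal genes of macrophages, Gpnmb and Ctss, stood apart from lysosomal genes at large. In B6 mice the medians were 0.75 for macrophage markers, 0.55 for the myeloid receptors and 1.07 for MHC class II. These lists share members, so they are not separate sets. Ctss is in the macrophage, MHC class II, lysosomal and protease lists. Gpnmb is in the macrophage and lysosomal lists, and C1qa and C1qc are in the macrophage and complement lists.

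**Figure D2:**
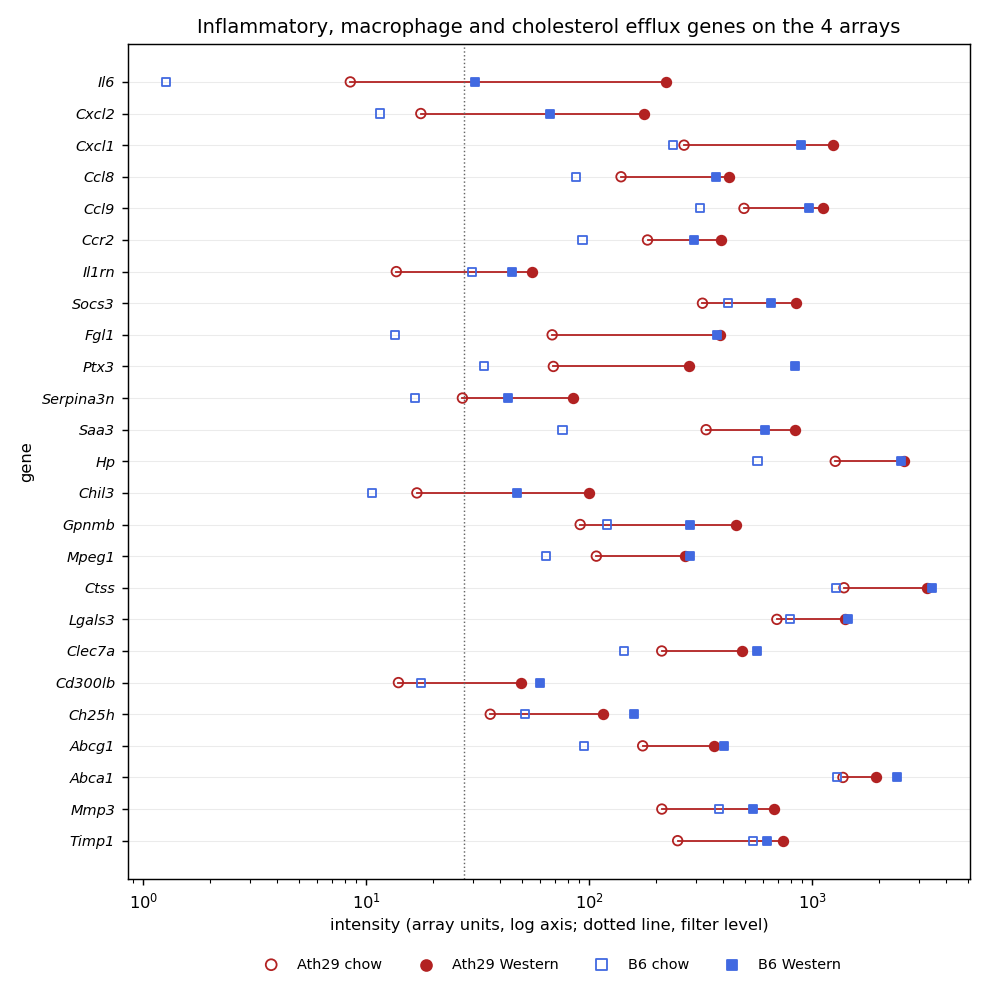
Intensity on each of the 4 arrays, in array units on a log axis, for 25 inflammatory, macrophage, cholesterol efflux and matrix protease genes, 1 gene per row, with Ath29 mice as circles and B6 mice as squares, open for chow and filled for Western diet. Red lines join the 2 Ath29 arrays and the dotted line is the filter level. In every row the filled circle lies to the right of the open one, from 17.6 to 175 for Cxcl2 and from 1375 to 1943 for Abca1.

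Genes that export cholesterol were higher in part. The liver X receptors (LXR) switch these genes on when oxysterols build up in a cell. Ch25h, which makes the oxysterol 25-hydroxycholesterol, read 36.0 and 115 in Ath29 mice (log2 difference 1.68) and 51.6 and 160 in B6 mice (1.63). Abcg1, which passes cholesterol to HDL, went from 174 to 361 (1.06), Abca1, which passes it to lipid-poor apolipoprotein A-I, from 1375 to 1943 (0.50), and Srebf1, a lipid synthesis regulator, from 406 to 662 (0.71). In B6 mice Abcg1 gave 2.08 and Abca1 0.89. Of the 13 members measured 9 were above 0, with a median of 0.41, which was 0.06 to 0.08 under 4 other choices of probe sets and filter. Mylip, an LXR target that degrades the LDL receptor, read 1706 and 1703, Npc2 gave -0.15, and Scarb1, the HDL receptor, read 978 and 761 (-0.36).

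Cholesterol synthesis genes showed no common direction, with 9 of 19 above 0, a median of -0.01 and 0 at 2-fold. Sqle, the squalene epoxidase, read 112 and 162 (log2 difference 0.53), while Fdft1, the squalene synthase one step earlier, read 3295 and 2421 (-0.44). Hmgcs1, near the start of the pathway, read 2619 and 2498, and Srebf2, its master regulator, 115 and 108. Scavenger receptors, which take up modified lipoproteins, had 6 of 13 members above 0 and a median of -0.01.

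Genes that burn fat were lower on Western diet in Ath29 mice, while they were higher in B6 mice. Of 29 genes of fatty acid oxidation and PPAR targets, 28 were below 0 in Ath29 mice with a median of -0.36, and 28 were above 0 in B6 mice with a median of 1.10. Ppargc1a, the coactivator that raises mitochondrial capacity, read 338 on chow and 163 on Western diet (log2 difference -1.05), with its 4 other probe sets between -1.12 and -0.91. In B6 mice it read 141 and 315. Ppara, the fatty acid sensor of the pathway, read 108 and 67.2 in Ath29 mice (-0.68) and 31.2 and 157 in B6 mice. Ucp3, a mitochondrial carrier, read 301 and 118 (-1.35, other probe set -0.84) against 74.5 and 402 in B6 mice. Acot1, an acyl-CoA thioesterase, read 732 and 340 (-1.10), and Ehhadh, of peroxisomal oxidation, 589 and 313 (-0.91). Core enzymes of mitochondrial oxidation lay closer to 0, with Acadl at -0.33, Acadvl at -0.36 and Cpt2 at -0.37.

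Ranked over the 4 arrays, 23 of the 29 read highest on B6 Western, then on Ath29 chow, Ath29 Western and B6 chow. Only 2 of the 29 (6.9%) read below both B6 arrays on Ath29 Western, against 31.2% of all genes. Another position, above both on Ath29 chow, held 2 (6.9%), against 24.1% of all genes. For most members the Ath29 arrays therefore lay inside the span of the B6 arrays, with the order of the diets turned round.

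Fat markers went the same way, though the lists share members, among them Ppargc1a and Ehhadh in both oxidation and brown fat. Of 17 brown fat thermogenic genes 16 were below 0 in Ath29 mice (median -0.43) and 15 above 0 in B6 mice (median 1.30). Their summed intensity was 25120 on Ath29 chow, 19710 on Ath29 Western, 15970 on B6 chow and 31900 on B6 Western. Elovl3, a fatty acid elongase of brown fat, read 411 and 144 in Ath29 mice (log2 difference -1.51) and 83.9 and 679 in B6 mice. Ucp1, the uncoupling protein that defines brown fat, read 4464 and 3755 (-0.25) and 3526 and 5453 (0.63). Otop1, Kcnk3 and Cox7a1 gave -0.77, -0.68 and -0.60. For white fat, 12 of 15 markers were below 0 (median -0.29), with adiponectin (Adipoq) at 4701 and 3832 and the adipogenic gene Adig at 1060 and 568 (-0.90), and the summed intensity was 26910, 23700, 22530 and 29450 in the same order of arrays. Sncg, also expressed in nerve, was the 1 marker at least 2-fold higher (44.3 and 118). How much of the difference in fat-burning genes lies in the amount of fat on each vessel was not tested.

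Other lipid and energy lists followed. Fat storage shares Cidea with the brown fat list, and Pparg, Cidec and Lipe with the white fat list, so these lists are not separate sets. Fat storage and lipolysis had 14 of 18 genes below 0 (median -0.23), with Pparg, the master regulator of fat cells, at 96.0 and 53.8 (log2 difference -0.84), Aqp7, the glycerol channel, at 73.1 and 46.0 (-0.67), and Lpl, lipoprotein lipase, at 9297 and 8204 (-0.18). The respiratory chain had 34 of 36 genes below 0 in Ath29 mice (median -0.23) and all 36 above 0 in B6 mice (median 0.55). Its largest differences were Uqcrq of complex III (1928 and 1329, -0.54) and Ndufs1 of complex I (700 and 493, -0.51). Other probe sets of Uqcrq ran from -0.45 to 0.35. The shift was small and shared by most members. Fatty acid and triglyceride synthesis was split, with 8 of 20 above 0 and a median of -0.06. There Elovl6 read 1200 and 731 (-0.72) and Dgat2, of triglyceride assembly, 3621 and 2682 (-0.43), while Fads2, a desaturase, read 45.6 and 73.5 (0.69). Gpihbp1, the capillary anchor of lipoprotein lipase, read 499 and 278 (-0.84) and 203 and 664 in B6 mice (1.71).

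**Figure D3:**
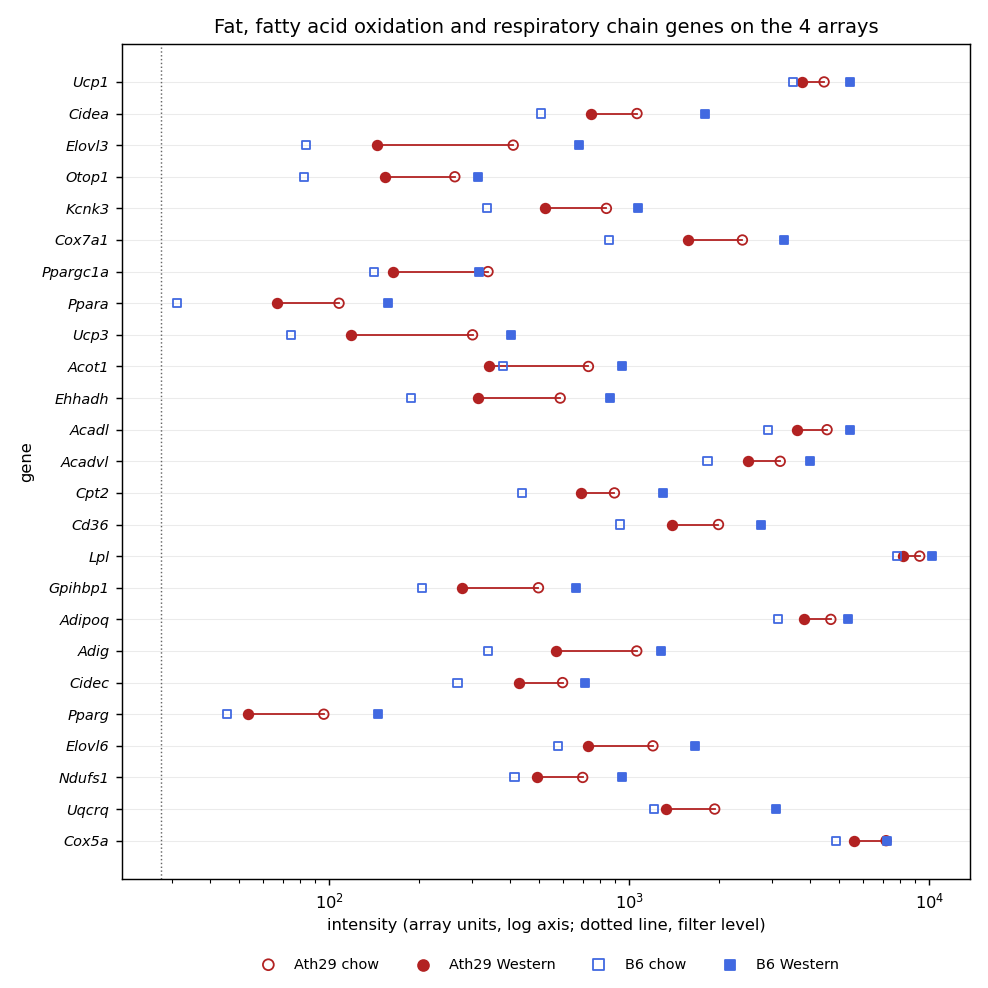
Intensity on each of the 4 arrays, in array units on a log axis, for 25 genes of brown and white fat, fatty acid oxidation and the respiratory chain, with Ath29 mice as circles and B6 mice as squares, open for chow and filled for Western diet. Red lines join the 2 Ath29 arrays and the dotted line is the filter level. The filled circle lies to the left of the open circle in every row, while the filled square lies to the right of the open square, as for Elovl3 at 411 and 144 in Ath29 mice and 83.9 and 679 in B6 mice.

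Markers of other blood and immune cells gave other values than those of macrophages. B cell and plasma cell markers had 8 of 9 members below 0 in Ath29 mice, against 43.8% of all genes, with a median of -0.57 (-0.28 over 16 genes with no filter), and 4 were at least 2-fold lower, against 0.853% of all genes. Of 20 listed, 7 lay below the filter, among them the B cell receptor genes Cd79a (8.19 and 7.78 in Ath29 mice) and Cd79b. B cells could therefore be followed only in part. Jchain, which joins secreted IgA and IgM, read 154 and 32.2 (log2 difference -2.26) and 8.93 and 49.6 in B6 mice, Ms4a1 (CD20) 109 and 46.3 (-1.23, other probe set -0.79), and Pou2af1, a B cell coactivator, 87.2 and 40.2 (-1.12). Igha read 38.3 and 16.3, and Ighm gave 0.02. Mast cell markers had 5 of 6 members below 0 (median -0.28) and 5 above 0 in B6 mice (0.70), with Cpa3, the mast cell carboxypeptidase, at 97.0 and 72.0 in Ath29 mice and 55.2 and 164 in B6 mice.

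The T cell receptor component Cd3e read 0.990 and 1.89, and 13 of 22 T and NK markers lay below the filter, so T cells could not be followed. Il7r, the interleukin 7 receptor of lymphocytes, read 35.2 and 74.3 in Ath29 mice. Of 18 neutrophil markers 9 passed the filter, 4 of them above 0, with a median of -0.17. S100a8 read 196 and 244 and S100a9 55.5 and 76.6. Cxcl1 and Cxcl2 attract neutrophils, but with 6 markers below the filter these cells could be followed only in part. Platelet genes had 8 of 10 below 0 (median -0.15). Ppbp, a platelet chemokine, read 127 and 55.4 (-1.20), Clec1b, a platelet receptor, 124 and 58.0 (-1.10), and Pf4 3691 and 3387. The red cell anion exchanger Slc4a1 read 113 and 48.2 (-1.23), and the globin Hbb-b2 went the other way, 61.2 and 162 (1.41).

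Heart muscle genes were low on both Ath29 arrays. Their summed intensity was 3400 and 3447 in Ath29 mice, 4991 on B6 chow and 19520 on B6 Western, and their median diet difference -0.08 in Ath29 mice and 3.40 in B6 mice. Myh6, the adult cardiac myosin, read 105 and 30.1 (log2 difference -1.80) against 120 and 2639 in B6 mice, and Myl7, the atrial light chain, 75.1 and 7.01, at the floor, against 52.3 and 2039. Hand2, a cardiac and sympathetic transcription factor outside the list, read 163 and 17.6 (-3.22) and 33.9 and 48.1 in B6 mice. Much of the large strain by diet differences lies here: of the 10 most negative, Myh6 (-6.25), Actc1, Sln and Myl4 are heart muscle genes, and each read at least 2-fold higher on B6 Western than on any other array. The ranking used these same values, which favours such a position.

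In the vessel wall, contractile genes differed little and mostly in one direction. Of 29 contractile smooth muscle genes 24 were above 0 in Ath29 mice with a median of 0.09, and 27 were below 0 in B6 mice with a median of -0.27. Among smooth muscle markers, Acta2 gave 0.04, Cnn1, calponin, 0.09 and Tagln 0.36. Larger differences came from Mustn1, a small muscle nuclear protein (102 and 215, 1.07), Myl9, the regulatory light chain (662 and 1103, 0.74), Tpm1, tropomyosin (451 and 755, 0.74), Csrp1 (158 and 261, 0.72) and Myh11, the smooth muscle myosin (833 and 1318, 0.66). Other probe sets gave 0.20 to 0.24 for Tpm1 and 0.06 for Myh11. On chow 15 of the 29 (51.7%) read below both B6 arrays, against 39.2% of all genes. Myh11 read 2050 and 1369 in B6 mice, both above the Ath29 arrays. The actin 3' to middle ratio, highest on Ath29 chow, moves with this pattern, and its part was not tested.

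Endothelial markers had 12 of 22 above 0 and a median of 0.03, whose sign turned under quantile normalization. Vwf read 1763 and 2042, Cdh5 113 and 128, and the VEGF receptors Kdr and Flt1 gave -0.56 and -0.56. Aplnr, the apelin receptor, read 729 and 349 (-1.06), but its other probe set gave 0.09. Leukocyte adhesion molecules, which hold blood cells to the wall, had 13 of 17 above 0 in Ath29 mice (median 0.25) and 7 in B6 mice (-0.18). Icam1 read 327 and 526 (0.69), Vcam1 919 and 1368 (0.57, other probe sets -0.78 and 0.77), Selp 423 and 609 (0.52), and the leukocyte integrin chain Itgb2 91.3 and 161 (0.82). None reached 2-fold.

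Matrix genes of the wall were higher for selected members. Proteoglycans, which bind lipoproteins and shape collagen, had 15 of 22 above 0 (median 0.23, in B6 mice -0.24). Fmod, fibromodulin, a regulator of collagen fibrils, read 1201 and 2448 (log2 difference 1.03) with all 5 other probe sets between 1.06 and 1.44, and 1592 and 1140 in B6 mice. Comp, a cartilage and tendon matrix protein, went from 154 to 331 (1.10), and Vcan, versican, from 599 to 1141 (0.93), with other probe sets at 0.20 and 0.54. Among proteases and inhibitors, Mmp3, stromelysin, read 212 and 673 (1.67), and Timp1, an inhibitor of such proteases, 249 and 741 (1.57), against 382 and 544, and 541 and 625, in B6 mice. The 18 measured members had a median of 0.10.

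Collagens were split. Of 25, 15 were above 0 and the median was 0.11, with Col8a2, a network collagen of vessel walls, at 50.7 and 132 (1.38), Col8a1 at 259 and 390 (0.59) and Col12a1 at 53.5 and 97.2 (0.86). The fibrillar collagens that make up most of the wall did not follow: Col1a1 read 4021 and 3305 (-0.28) and Col3a1 8445 and 7806 (-0.11). Elastin (Eln) read 4087 and 3477 (-0.23). Fibroblast and adventitial markers had 13 of 18 above 0 (median 0.14), led by Sfrp4, a secreted Wnt inhibitor, at 647 and 1377 (1.09), and Igfbp6 at 53.5 and 102 (0.93). In B6 mice 23 of 25 collagens and 14 of 18 fibroblast markers were below 0.

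Medians of the signalling lists of wall cells ran from 0.12 to 0.24, against 0.04 over all genes, of which 56.2% were above 0. The TGF-beta and BMP list, which governs matrix and smooth muscle, had 17 of 25 above 0 (median 0.24, in B6 mice -0.23), with Bmp4 at 200 and 370 (0.89), Tgfb3 at 249 and 406 (0.71) and Inhba, the activin subunit, at 162 and 254 (0.65). Grem1, a BMP antagonist, read 43.6 and 23.0 (-0.93) and Smad6, an inhibitor, 208 and 134 (-0.64). In the Notch pathway 10 of 13 were above 0 (median 0.12), with Jag1, a ligand of smooth muscle, at 487 and 742 (0.61). The Wnt list had 10 of 17 above 0 (median 0.16, in B6 mice -0.48), with Ccn4, a Wnt-induced secreted protein, at 35.1 and 98.6 (1.49). Ion channels and cGMP signalling had 16 of 20 above 0 (median 0.22), with Cacna1c, the L-type calcium channel, at 125 and 188 (0.59). Receptors for vasoactive hormones had 11 of 17 above 0 (median 0.13), with Ptgir, the prostacyclin receptor, at 58.3 and 102 (0.80). Rgs4, which damps G protein signalling, read 435 and 1221 (1.49, other probe set 1.38), and 1109 and 1010 in B6 mice.

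Immediate-early genes, the transcription factors that respond within minutes to stimuli and to tissue handling, had 19 of 22 members above 0 and a median of 0.35, against -0.03 in B6 mice. Fos read 180 on chow and 540 on Western diet in Ath29 mice (log2 difference 1.58), but 1456 and 614 in B6 mice (-1.25). Klf2, the flow-responsive endothelial factor, read 47.9 and 154 (1.69) and 182 and 119 in B6 mice. Ccn1, a matricellular protein, read 552 and 1298 (1.23, other probe sets 0.17 to 1.44), Myc 37.7 and 81.3 (1.11) and Egr3 61.3 and 117 (0.94), while Egr1 read 1867 and 2029 and Jun gave 0.09. For 19 of the 22 (86.4%) the Ath29 chow array read below both B6 arrays, against 39.2% of all genes. For 13 (59.1%) the Ath29 Western array did, against 31.2% of all genes. The chow array was thus the low one for most members, and Ath29 Western exceeded both B6 arrays in 3 (13.6%, against 27.1% of all genes).

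**Figure D4:**
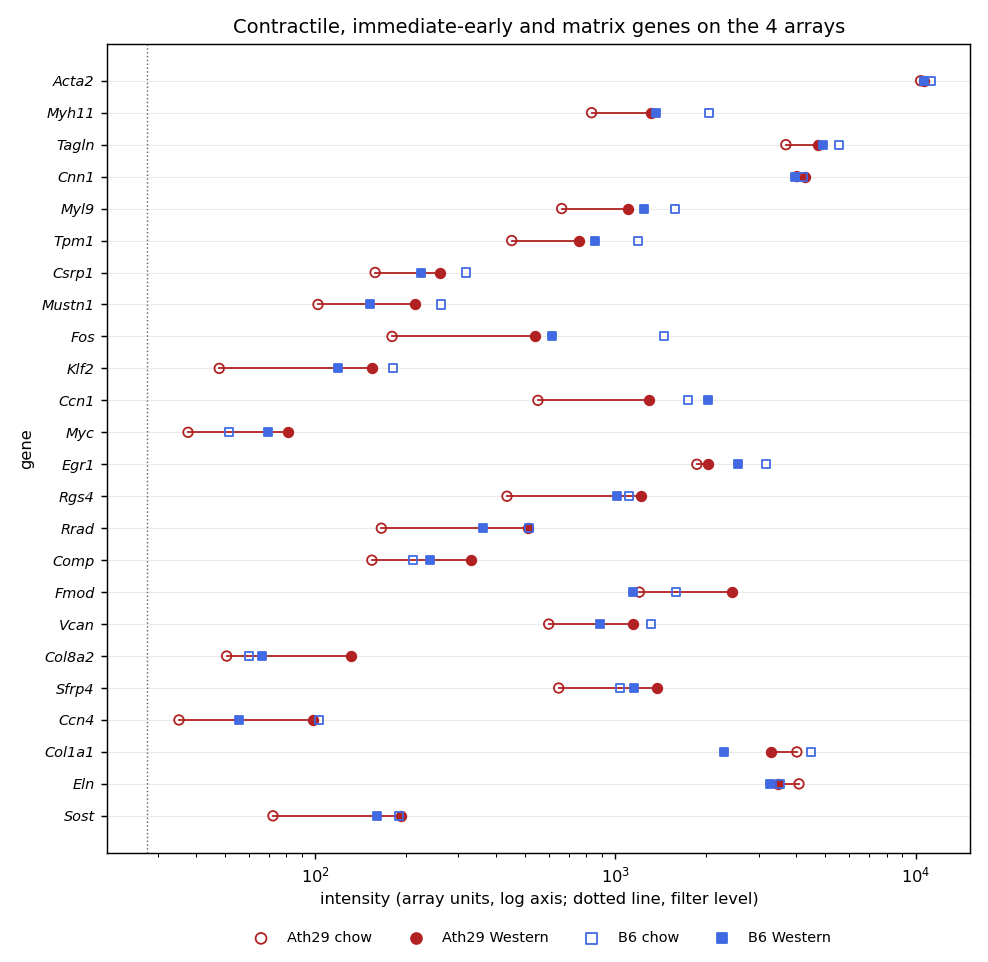
Intensity on each of the 4 arrays, in array units on a log axis, for 24 contractile, immediate-early, signalling and matrix genes, with Ath29 mice as circles and B6 mice as squares, open for chow and filled for Western diet. Red lines join the 2 Ath29 arrays and the dotted line is the filter level. The open circle is the lowest point in many rows, such as Fos at 180 and Myh11 at 833, while Acta2 lies near 10390 on chow and 10670 on Western diet.

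Clock genes had 9 of 17 above 0 with no settled sign for their median of 0.02. Ciart read 61.3 and 26.5 and Hlf 398 and 232 (-0.78), while Nfil3, a repressor tied to the clock, read 209 and 351 (0.75). The time of day of harvest is not given in the sources used here. Unfolded protein response genes had 15 of 22 above 0 (median 0.15), with the chaperone genes Pdia6 (0.60), Creld2 (0.50) and Manf (0.43) leading. Heat shock genes had a median of 0.03, with Hsph1 at 2393 and 3454 (0.53). Of the antioxidant genes, Sod3, the extracellular superoxide dismutase, read 89.0 and 174 (0.96), while Gsta3, a glutathione transferase, read 364 and 127 (-1.52) and catalase (Cat) 6169 and 4902 (-0.33), and the 21 genes had a median of -0.02.

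Proliferation genes gave no common direction either. Cell cycle and replication genes had 11 of 25 above 0 and a median of -0.05, with Ccnd1, cyclin D1, at 124 and 241 (0.95) and Ccna2, cyclin A, at 119 and 76.1 (-0.65). Ribosomal protein genes had a median of 0.02 over 25 members, which ran from -0.13 to 0.46. Hox genes, which mark the position of a vessel along the body axis, had 7 of 17 above 0 and a median of -0.13, with Hoxc4 at 50.4 and 98.2 and Hoxd8 at 83.9 and 47.4.

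**Figure D5:**
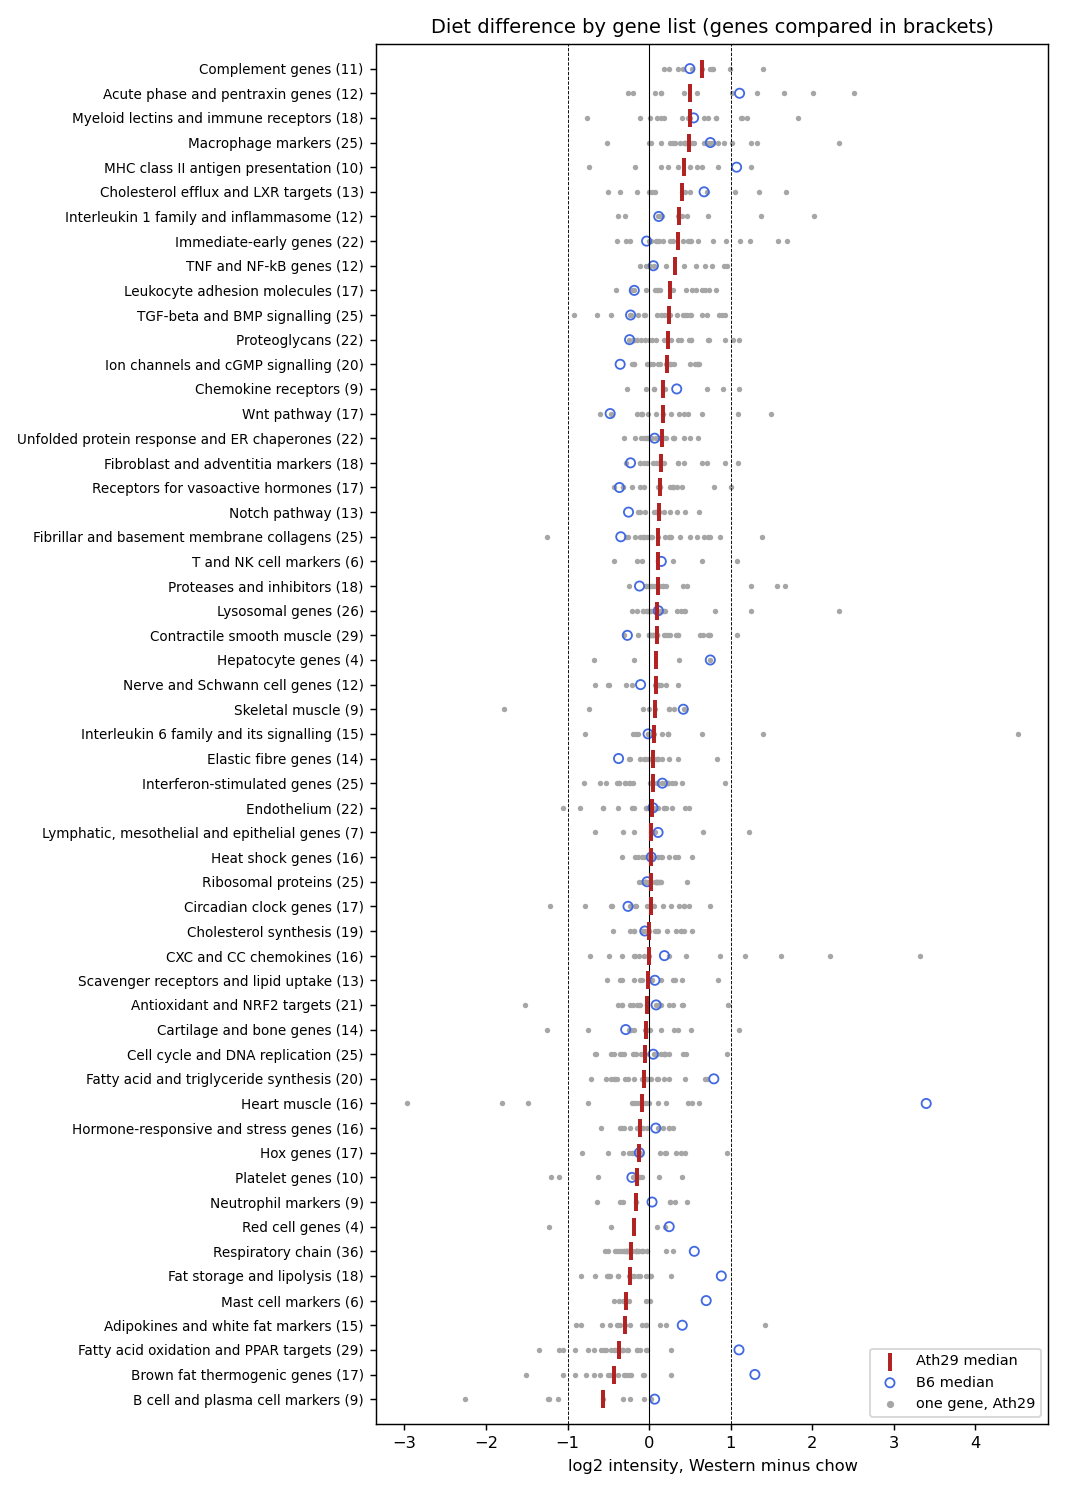
Each row is a gene list with the number of genes compared in brackets, and the horizontal axis is the log2 intensity difference, Western minus chow. Grey points are single genes in Ath29 mice, red bars the list's Ath29 median and open blue circles its B6 median. Complement genes have the highest Ath29 median at 0.65 and B cell and plasma cell markers the lowest at -0.57, while heart muscle has the widest gap between strains, -0.08 in Ath29 mice and 3.40 in B6 mice.

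Several of the largest single differences belong to none of these lists. The largest, Plekha7, a junction protein, read 6.47 on chow and 654 on Western diet in Ath29 mice, but its other probe set gave 0.02. Cadps2, of vesicle release, read 52.0 and 232 (log2 difference 2.16), and Mlana, a melanocyte gene, 35.7 and 145 (2.02). The melanocyte gene Dct, looked up after the values of Mlana were seen, read 80.0 and 50.2. Apod, a lipid-binding apolipoprotein, read 106 and 277 (1.39, other probe set 1.05) and 98.2 and 252 in B6 mice. Sost, the Wnt inhibitor sclerostin, read 72.3 and 193 (1.42), and Rrad, a GTPase that limits calcium channels, 166 and 511 (1.62) against 514 and 363 in B6 mice.

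On the lower side, Ces1f, a carboxylesterase, read 477 and 202 (log2 difference -1.24) and 152 and 462 in B6 mice, and Akr1c13, an aldo-keto reductase, 246 and 89.8 (-1.46) against 75.9 and 153. Rbp7, a retinol-binding protein of fat vessels, read 190 and 73.3 (-1.37) and 55.1 and 195 in B6 mice. All 3 were lower on Western diet in Ath29 mice and higher in B6 mice. Bbc3, the p53 target Puma, read 76.5 and 32.0 (-1.25) and was lower in B6 mice too (72.6 and 46.1).

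Among genes above the filter level on all 4 arrays, the most positive strain by diet difference was that of Camk4, a calcium-dependent kinase, at 3.54, from 41.2 and 108 in Ath29 mice and 140 and 31.9 in B6 mice. Dclk1, Mfap3l, Rrad, Klf2, Sbspon, Fos, Ccn4, Zfp454 and Itih2 completed the 10 most positive, and each read lower on Ath29 chow than on B6 chow. Elovl3, Ucp3, Tmem182, Cox6a2, Rasl2-9 and Sgk2 completed the 10 most negative, and each read higher on B6 Western than on any other array. Both groups were ranked by the values of these same 4 arrays, which favours such positions, so the positions are a description only. Rcn2, a candidate gene of the Ath29 locus, read 646 on chow and 842 on Western diet in Ath29 mice (log2 difference 0.38, other probe set 0.30). In B6 mice it read 1410 and 1118 (-0.33). Its other probe set went the opposite way in B6 mice, from 104 to 145, and read 60.3 and 74.0 in Ath29 mice. By either probe set both Ath29 arrays lay below both B6 arrays, while the direction of the B6 diet difference was not settled. Of the 11718 genes compared, 649 lay on chromosome 9, with a median diet difference of 0.05, against 0.04 over all genes. At least 2-fold higher were 7 of the 649, and 6 were at least 2-fold lower. Over all genes 156 (1.33%) were higher and 100 (0.853%) lower.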

How the data were processed

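Aortic RNA of 4 groups was hybridised to 4 Affymetrix mouse arrays, 1 per group, from 8 ug of total RNA each, per the labels' protocols. The authors deposited 1 table of probe set intensity values on a linear scale, as the values show. The sources used here name no background correction, summarisation or normalization. Array medians were 27.9 to 28.8, and the number of arrays limits the precision. Annotation gave 1 symbol to 34945 of 45037 non-control probe sets, several to 932, which were left unnamed, and none to 9160. Of those with 1 symbol, 34741 matched the reference gene table (GRCm38.p6).

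Intensities were multiplied by 0.990 to 1.02 to equal medians, raised to the 25th percentile of all values (9.59) where lower, and taken to log2. The 22518 probe sets with a mean above the overall median (27.4) were kept, and each gene was read from its brightest probe set. Printed intensities carry the shift but not the floor. Genes were compared as Western minus chow, with 2-fold as the threshold. A list is described by its counts and median over the members that passed the filter. Named genes are the 30 highest and 30 lowest with both Ath29 arrays above the filter level, 10 and 10 with 1 below it, 10 and 10 by strain by diet difference, up to 8 per list, and Apoe and Rcn2. Acadl, Acadvl, Acta2, Adgre1, Adipoq, Alb, Ccl2, Cd3e, Cdh5, Cnn1, Col3a1, Cpt2, Csf1r, Dct, Egr1, Hmgcs1, Ighm, Jun, Lpl, Mrc1, Nfkbia, Srebf2, Ucp1, Vwf and other list members outside this rule were added after their values were seen. Members, lists and the motif were chosen with earlier results of these data known. Alternatives changed the scaling, floor, filter, probe sets and threshold. Python 3.11.15, pandas 2.3.3, numpy 2.4.6 and matplotlib 3.10.9 were used, and the code was tested on simulated data.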

Additional observations from a re-analysis of the deposited data

Results flagged for a closer look

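In 4 gene lists the median diet difference of Ath29 mice was opposite to that of B6 mice, with both medians more than 0.25 from 0, the median gap between probe sets of a gene. Fatty acid oxidation and PPAR targets had a median of -0.36 in Ath29 mice against 1.10 in B6 mice, brown fat genes -0.43 against 1.30, white fat markers -0.29 against 0.41, and mast cell markers -0.28 against 0.70. The oxidation and brown fat lists share members, among them Ppargc1a and Ehhadh. The difference between strains was not tested, since each group is 1 array. Brown fat genes had a summed intensity of 25120 on Ath29 chow, 19710 on Ath29 Western, 15970 on B6 chow and 31900 on B6 Western, and the part of the fat on the vessels was not tested.

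Differences also appear in probe sets that no comparison uses. Of 3366 probe sets above the filter without a single gene symbol, 140 (4.16%) were at least 2-fold different between the Ath29 arrays, 87 higher on Western diet (2.58%) and 53 lower (1.57%). The same shares among the genes compared were 1.33% and 0.853%, and neither set has a replicate.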

How the results depend on the processing

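No paired analysis was possible because each group has 1 array, and for the same reason no array could be left out. Against 156 genes higher and 100 lower at 2-fold, 376 and 357 were counted with no filter, 45 and 12 with a filter at the 75th percentile, 707 and 510 at 1.5-fold, 31 and 16 at 3-fold, and 97 and 51 with both Ath29 arrays above the filter level, a setting added after the data were seen. Counts under quantile normalization, a common 75th percentile, no shift, the other floors, a filter on the 2 Ath29 arrays, the mean of all probe sets or single-transcript probe sets ran from 138 to 158 higher and 92 to 122 lower. The share that was higher, 60.9%, was 53.1% at a common 75th percentile. Of 540 list medians under an alternative, 527 lay within 0.25 of the value reported, the median gap between probe sets of a gene, and 13 did not. Of 4295 values of named genes, 4209 lay within it. With no filter, the TNF and NF-kB list was 0.054, B cell and plasma cell markers -0.28 and cholesterol efflux 0.076. At the 75th percentile filter, chemokines were 0.66, MHC class II 0.84, cholesterol efflux 0.058 and cartilage and bone genes 0.25. A filter on the Ath29 arrays gave 0.45 for chemokine receptors and 0.076 for cholesterol efflux. Without probe sets open to several transcripts, chemokine receptors were 0.71, acute phase genes 0.24, cholesterol efflux 0.076 and hepatocyte genes -0.19, and Gper1 (0.32) and Aplnr (0.089) changed sign. These settings test other genes or probe sets by construction. The medians of the clock, endothelial, heat shock, interferon, lymphatic, ribosomal and scavenger lists lay so near 0 that another scaling turned their sign.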
